A study of Mus musculus with 44 samples.

Results

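The nuclear-encoded subunits of the mitochondrial respiratory chain and ATP synthase were examined in ribosome-bound mRNA of hippocampal Emx1-lineage cells from mice with early-life access to a running wheel and from sedentary mice. Members were the protein-coding genes whose symbol starts with Ndufa, Ndufb, Ndufc, Ndufs, Ndufv, Sdha, Sdhb, Sdhc, Sdhd, Uqcr, Cyc1, Cox4i, Cox5, Cox6, Cox7, Cox8 or Atp5, without the Ndufaf assembly factors. The rule found 91 of the 55335 rows of the count table, with 90 symbols, since Atp5o was listed under 2 identifiers. Of these rows, 38 belonged to complex I, 4 to complex II, 9 to complex III, 18 to complex IV and 18 to complex V, the ATP synthase. The other 4 were Sdhaf1 to Sdhaf4, which the prefix Sdha also takes; they encode assembly factors of complex II, not subunits, and are described apart from it.

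All mice were male Emx1-NuTRAP mice, the offspring of Emx1-IRES-Cre and NuTRAP parents. In these animals Cre, driven from the Emx1 locus, switches on a GFP-tagged ribosomal protein for translating ribosome affinity purification (TRAP) and a biotin tag on nuclei for nuclear isolation (INTACT), mainly in excitatory neurons, although the Emx1 lineage in the forebrain also gives rise to some glia. Early-life exercise (ELE) mice could use a running wheel freely between postnatal days 21 and 41, and sedentary mice lived in cages without a wheel; both were housed in pairs and killed the day after this period. In simultaneous INTACT and TRAP (SIT), mRNA came from both hippocampi of 4 ELE and 4 sedentary mice. In the separate isolation, 1 hippocampus of each mouse gave mRNA and the other gave nuclei, with 3 ELE and 3 sedentary mice for the left and 3 and 3 other mice for the right. The 20 libraries held between 45895097 and 65767802 counts. Excitatory neuron markers were abundant in all libraries, with 10 markers summing to 10914 to 15000 counts per 1000000 (CPM). Glial transcripts were present as well, with 10 astrocyte markers summing to 4331 to 9587 CPM and 10 oligodendrocyte markers to 2633 to 5290 CPM. The study compared 3 of the SIT ELE libraries with 2 of the SIT sedentary libraries, identified as the 1 of 24 subsets that matches its lists, and this is the SIT comparison used below; values with all 8 are given where they differ.

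Complex I takes electrons from NADH and complex II takes them from succinate as part of the tricarboxylic acid cycle. Complex III passes the electrons from ubiquinol to cytochrome c, complex IV passes them to oxygen, and complex V uses the proton gradient built by complexes I, III and IV to make ATP. Every complex except complex II mixes nuclear-encoded subunits with subunits translated inside the mitochondrion from mitochondrial DNA, so that 2 genomes have to be expressed together. Neurons depend on this chain for the ATP that drives ion pumping and synaptic transmission, and aerobic exercise is a classical stimulus of respiratory chain expression in skeletal muscle. Several subunits exist as paralogues with restricted expression, such as the heart and muscle forms Cox6a2, Cox7a1 and Cox8b and the testis form Cox6b2.

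Promoters of these genes are known for sites of a few shared factors, nuclear respiratory factor 1 (NRF1), the ETS-family factor GABP (also called NRF2), YY1 and the oestrogen-related receptors (ERR). RefSeq start sites on GRCm38.p6 gave windows of 250 bases before to 50 bases after the start for 73 of the 90 symbols. The NRF1 motif, GCGCA and GCGC with 1 base of any kind between them, searched on both strands like the others, was in 19 of the 73 members, or 26.03%, and in 7.17% of the 17491 protein-coding genes with a window. The GABP motif CCGGAAG was in 19 members, or 26.03%, against 12.9% of all genes, and the YY1 motif AAGATGGC in 10 members, or 13.7%, against 3.57%. The ERR motif AAGGTCA was in 8 members, or 10.96%, against 4.73% of all genes. At least 1 of these 4 motifs was in 42 members, or 57.5%, against 24.9% of all genes, and at least 2 of them in 12 members, or 16.4%, against 3.24%. By contrast, the general SP box GGGCGG was in 45.2% of members and 49.2% of all genes. No GABP match overlapped a YY1 match in these windows. A match is a description of letters and no evidence of binding.

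The 7 stretches of 120 bases upstream of the start are shown for abundant members of complexes II, III and IV and for members that were lower in the left ELE libraries, described further on. They run 5′ to 3′ on the gene's strand, end before the first base annotated as transcribed, and carry in capitals each NRF1, GABP or ERR motif on either strand.
Sdha, chr13:74350281-74350400, minus strand: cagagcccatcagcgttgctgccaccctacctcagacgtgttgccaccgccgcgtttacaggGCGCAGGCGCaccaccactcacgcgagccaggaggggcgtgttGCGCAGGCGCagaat
Uqcr11, chr10:80406831-80406950, minus strand: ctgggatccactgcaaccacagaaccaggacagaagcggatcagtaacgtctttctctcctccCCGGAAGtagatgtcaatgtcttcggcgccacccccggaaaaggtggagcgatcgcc
Cox6a1, chr5:115348982-115349101, minus strand: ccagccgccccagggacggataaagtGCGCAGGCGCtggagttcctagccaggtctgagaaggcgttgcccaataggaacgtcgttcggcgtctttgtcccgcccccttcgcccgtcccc
Ndufa11, chr17:56717642-56717761, plus strand: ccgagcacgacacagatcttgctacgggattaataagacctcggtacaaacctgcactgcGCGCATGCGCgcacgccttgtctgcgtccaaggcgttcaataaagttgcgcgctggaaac
Atp5e, chr2:174464106-174464225, minus strand: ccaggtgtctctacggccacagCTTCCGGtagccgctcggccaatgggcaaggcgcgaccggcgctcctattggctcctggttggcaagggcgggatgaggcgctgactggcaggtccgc
Atp5l, chr9:44920743-44920862, minus strand: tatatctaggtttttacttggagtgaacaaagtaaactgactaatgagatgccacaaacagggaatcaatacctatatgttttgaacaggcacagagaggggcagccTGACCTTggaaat
Ndufa4, chr6:11907498-11907617, minus strand: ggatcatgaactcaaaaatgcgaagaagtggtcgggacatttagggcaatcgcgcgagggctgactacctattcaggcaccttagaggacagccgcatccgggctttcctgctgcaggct
The Sdha stretch held the NRF1 motif 2 times, and those of Cox6a1 and Ndufa11 held it once each. The GABP motif was in the stretches of Uqcr11 and, on the opposite strand, Atp5e, and the ERR motif, on the opposite strand, in that of Atp5l. The Ndufa4 stretch held none of the 4.

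In all 20 libraries the subunit genes were among the abundant mRNAs. The count of a library was scaled to CPM, counts per 1000000 counts of the library after TMM normalization, and levels of different genes were compared only per exonic length, as TPM, which sum to 1000000 in a library. A member counted as expressed at a mean of at least 1 CPM over the 20 libraries, and 82 of the 91 rows were: 37 of complex I, all 4 of complex II, all 9 of complex III, 11 of complex IV, 17 of complex V and the 4 Sdhaf genes. Of these 82, 80 lay above the median of all 14225 expressed genes, 19.0 TPM, and 58 lay in the top decile, above 144 TPM.

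Levels differed widely within complexes I, III, IV and V, and less within complex II, although the subunits of a complex are assembled in fixed ratios. In complex IV, which holds the most abundant members, Cox8a had 3363 TPM and Cox6a1 had 1791 TPM; both are small structural subunits around the catalytic core. The median of the expressed complex IV members was 360 TPM and the lowest had 119 TPM. In complex III, levels ran from 147 to 837 TPM with a median of 266 TPM, led by the small subunits Uqcr11 (837 TPM) and Uqcr10 (720 TPM). Complex V ran from 30.5 TPM for Atp5s to 931 TPM for Atp5a1, the alpha subunit of the catalytic F1 head, with Atp5b, the catalytic beta subunit, at 763 TPM and a median of 197 TPM. Complex I had the lowest median of the 5 complexes, 174 TPM. Within it the range went from 23.3 TPM for Ndufab1, the mitochondrial acyl carrier protein, to 435 TPM for Ndufa8, and Ndufs1, the largest subunit of the electron-input arm, had 35.5 TPM. TPM divides by all annotated exonic bases of a gene, 6883 for Ndufab1 and 8086 for Ndufs1, so these low values depend on that length. The 4 complex II genes had similar levels, from 158 TPM to 278 TPM for Sdha, the flavoprotein that oxidises succinate. The Sdhaf assembly factors were lower, with a median of 15.7 TPM.

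**Figure D1:**
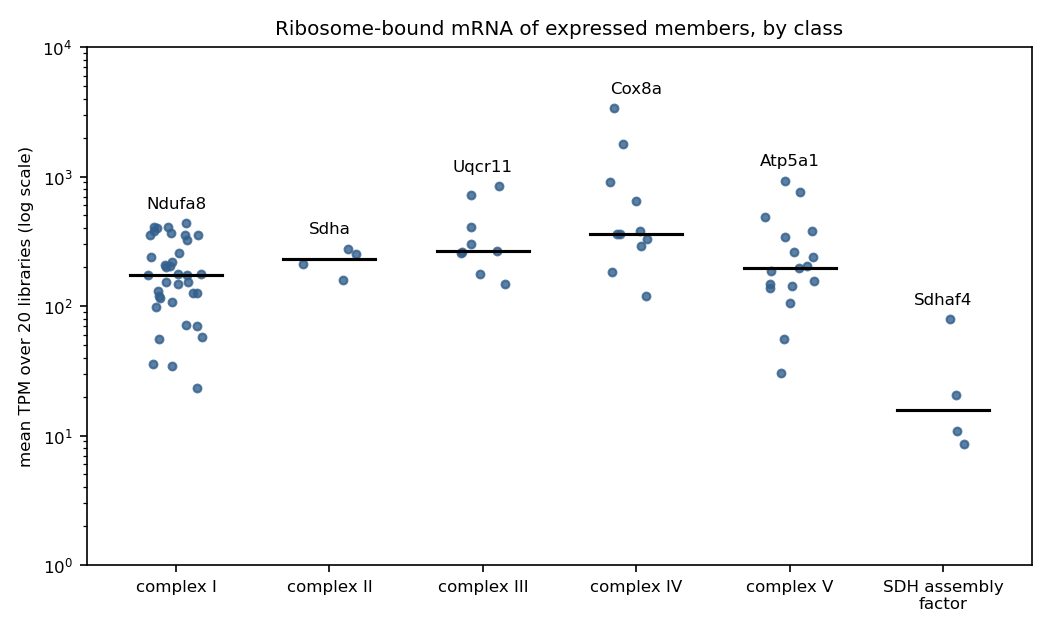
Mean level of each expressed member over the 20 libraries, in TPM on a log axis, by complex, with the Sdhaf assembly factors apart. Complex IV holds the highest member, Cox8a at 3363 TPM. The 9 rows under 1 CPM are not drawn.

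The 9 rows under 1 CPM were Cox8b, Cox7a1, Cox7b2, Cox6b2, Cox4i2, Cox6a2, Ndufa4l2, Cox8c and the second Atp5o row. Apart from that second row, they are paralogues of an expressed member. As a share of the per-length level of a paralogue set, Cox4i1 made up a median of 99.8%, Cox6b1 99.6%, Cox8a 99.9%, Cox6a1 99.97% and Ndufa4 99.7%. Cox8c had 0 counts in all 20 libraries. The set with more than 1 abundant form in complex V was that of the c ring, the rotor of the proton channel, whose 3 genes encode the same mature peptide behind different import sequences. Atp5g3 gave a median of 49.7% (range 46.6 to 55.8%), Atp5g2 30.4% (23.2 to 32.1%) and Atp5g1 20.5% (17.3 to 22.0%) of that set. These shares depend on the exonic length, which joins all annotated exons: 4912 bases for Atp5g1, 1675 for Atp5g2 and 2181 for Atp5g3. In counts the order of Atp5g1 and Atp5g2 was the reverse, with 5564 to 9870 per library for Atp5g1 and 3098 to 4457 for Atp5g2. The reads of near-identical copies could be split by the counting. Pseudogenes named after Ndufab1, Uqcrh, Atp5c1, Atp5k and Atp5l are annotated, so that the levels of these 5 members are less certain, and Ndufb2, Ndufb8, Ndufb9 and Atp5g2 each overlap another annotated gene on the same strand.

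Members, most of them abundant, varied less between mice of a group than the typical expressed gene, a comparison not matched for level. In the 12 separate libraries the median within-group SD on the log2 CPM scale was 0.117 for expressed members and 0.169 for all expressed genes. In the 5 SIT libraries it was 0.120 and 0.173. A pair of sedentary SIT libraries outside the study's comparison, from the mice numbered NT7.2.3 and NT7.2.4, stood apart. With them the median SD in the 8 SIT libraries was 0.213 for expressed members and 0.269 for all expressed genes. The paper excluded its left-out sedentary samples as outliers and reports much ribosomal and other non-mRNA sequence in them. It proposes that RNA isolation had likely failed in these samples.

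The summed level of all members was 8123 and 8475 CPM in the NT7.2 libraries and between 9869 and 11339 CPM in the other 18. The same held for each complex. Complex I summed to 2175 and 2293 CPM against 2694 to 3231 CPM, and complex II to 571 and 570 CPM against 637 to 698 CPM. Complex III summed to 804 and 827 CPM against 1057 to 1297 CPM. Complex IV summed to 1712 and 1903 CPM against 2093 to 2574 CPM, and complex V to 2793 and 2803 CPM against 3220 to 3727 CPM. Of the 82 expressed members, 64 in NT7.2.3 and 57 in NT7.2.4 were lower than in each of the other 18 libraries.

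Set against the sedentary SIT mice NT6.305 and NT6.306, the NT7.2 libraries were lower in 80 of 82 expressed members, with a median log2 difference of -0.42, while the median over all expressed genes was -0.006. By complex, the medians were -0.49 in complex I, -0.37 in complex II, -0.57 in complex III, -0.41 in complex IV and -0.40 in complex V. The lowest were small subunits, Ndufc1 (-1.21) and Ndufa1 (-1.01) of complex I, Uqcr10 (-1.20) and Uqcr11 (-1.17) of complex III, and Atp5e (-1.07) and Atp5k (-1.02) of complex V. Uqcr10 had 47.7 and 65.0 CPM in the NT7.2 libraries, against 134 and 126 CPM in the NT6 sedentary libraries. The 2 members that were higher were Sdha (+0.13) and Ndufs1 (+0.25), which have long coding sequences. These groups were set by mouse number and not by treatment, so no test is given.

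The same libraries differed in other ways. Mitochondrially encoded RNA took 8.64% and 9.64% of their counts, with 95% Wilson intervals of 8.63 to 8.64% and 9.63 to 9.65% that cover counting error only. In the other SIT libraries its share was 0.195 to 0.523%, and in the separate libraries 0.0704 to 0.122%. Without mitochondrially encoded counts, the members still made up 0.820% and 0.856% of the NT7.2 counts, against 1.01 to 1.15% elsewhere. The summed level of 10 microglia markers was 243 and 253 CPM in the NT7.2 libraries and 7.75 to 16.02 CPM in the others. The summed level of 10 inhibitory neuron markers was 1307 and 1330 CPM, against 962 CPM in the ELE mouse NT6.304, 530 CPM in the ELE mouse TG9.1.4 and 161 to 310 CPM in the other 16. The summed level of 10 excitatory neuron markers was 11125 and 10914 CPM, against 11788 to 15000 CPM, and that of 10 oligodendrocyte markers was 4701 and 5290 CPM, against 2633 to 4162 CPM. Of the other lists of nuclear genes for mitochondrial proteins, 3 were low and 1 was not. The 44 assembly factors summed to 1088 and 1167 CPM in the NT7.2 libraries, against 1204 to 1453 CPM, and 17 tricarboxylic acid cycle enzymes to 2419 and 2389 CPM, against 2487 to 2717 CPM. The 13 mobile carriers and related genes summed to 408 and 429 CPM, against 442 to 534 CPM. The 15 regulators of mitochondrial biogenesis summed to 450 and 467 CPM, against 394 to 457 CPM in the others and 413 and 415 CPM in the NT6 sedentary libraries. In bulk libraries, fewer cells of a type and less RNA per cell cannot be told apart. The part of these differences in the lower subunit levels was not tested, and since both NT7.2 mice were sedentary and both TG7.4 mice ran, the number series and exercise cannot be told apart among them.

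**Figure D2:**
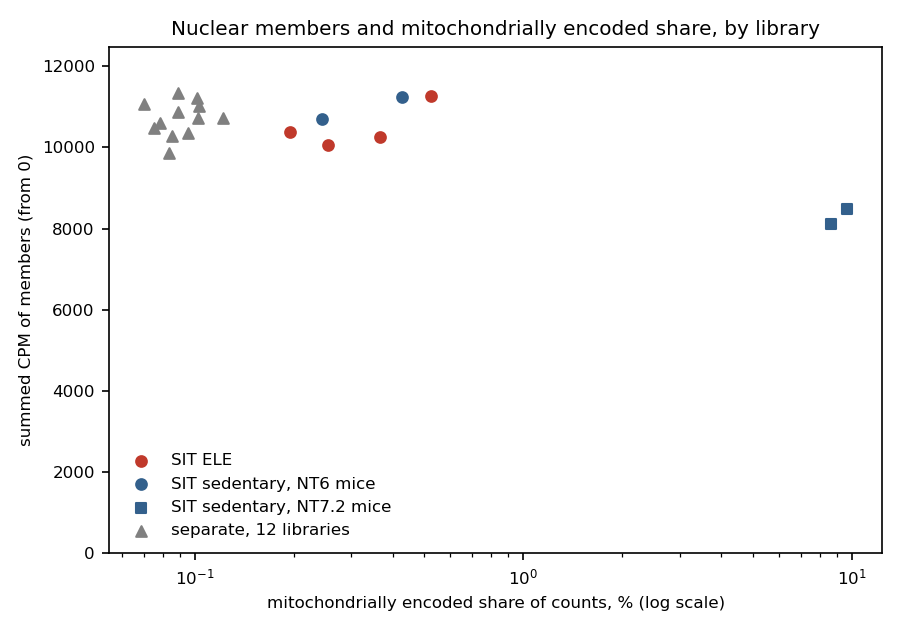
Summed CPM of all members against the percent of counts from mitochondrially encoded RNA, on a log axis, 1 point per library. The NT7.2 libraries lie alone, at 8.64% and 9.64% and at 8123 and 8475 CPM.

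The first comparison asks whether ELE changed subunit mRNA on ribosomes of SIT libraries. In the study's 5 libraries no member passed the test, edgeR's quasi-likelihood test at an unadjusted p under 0.05, by which 5.48% of the 18238 tested genes were called. DESeq2 called 0 of 89 members and 4.67% of all genes. Of the 88 members tested, 66 were lower in ELE, and the median log2 fold change was -0.055, against 0.001 over all genes. Complex V had the lowest median, -0.089, with 16 of 17 genes lower. Complex I had a median of -0.058 with 29 of 38 lower, complex III -0.016 with 6 of 9 lower, complex IV -0.020 with 9 of 16 lower, and complex II -0.003. All 7 core subunits of complex I encoded in the nucleus, which hold the flavin and the iron-sulfur clusters, were below 0, with a median of -0.082.

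The member with the lowest p was Ndufs8, a core subunit that carries iron-sulfur clusters. It had 57.8, 55.0 and 61.6 CPM in the ELE libraries and 69.7 and 66.1 CPM in the sedentary libraries, with no overlap. The log2 fold change was -0.22 (SE 0.11, n = 3 and 2, adjusted p = 0.915). For 78 of the 88 members the 95% interval of the log2 fold change lay within 0.5 on either side of 0. The ELE library TG7.4.2 carried much of the spread: its complex I sum was 3198 CPM, against 2828 and 2910 CPM in the other ELE libraries and 3181 and 3022 CPM in the sedentary ones. Without it, 13 members were called lower, or 14.8% of members where 11.1% of all genes were called, and the median was -0.107. Without NT6.303 1 member was called lower, where 5.63% of all genes were called, and without NT6.306 1 was called higher, where 3.61% were. Marker genes moved with this comparison. Of 10 choroid plexus markers 5 were called lower, with summed levels of 260 to 884 CPM in the ELE libraries and 900 and 1052 CPM in the sedentary ones. Of 10 excitatory neuron markers 4 were called higher, of 10 inhibitory neuron markers 2 were called lower, and of 10 astrocyte markers 1, Sox9, was called lower. The summed astrocyte markers did not move with Sox9, with 6317, 4331 and 6808 CPM in the ELE libraries and 5435 and 5420 CPM in the sedentary ones. Their part in the subunit values was not tested.

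With all 8 SIT libraries the direction turned. The median log2 fold change was +0.154, 76 of 89 members were higher in ELE, and medians by complex were 0.170 in complex I, 0.193 in II, 0.181 in III with 9 of 9 higher, 0.158 in IV and 0.116 in V. Apart from Cox6a2, 1 of the near-absent muscle forms, called lower (log2 fold change -3.51, SE 1.41, adjusted p = 0.508), no member passed the test, by which 9.07% of 17531 genes were called and 5.81% were called lower. In this comparison all 13 mitochondrially encoded subunit mRNAs were called lower, with a median of -3.73. In the 5 libraries none of the 13 was called and their median was +0.178. With all 8, 10 of 10 microglia, 9 of 10 inhibitory neuron and 6 of 10 choroid plexus markers were called lower. So were 5 of 8 endothelial and 3 of 10 oligodendrocyte markers. The excitatory neuron markers Prox1 (+0.44) and Neurod2 (+0.58) and the astrocyte marker Gfap (+0.80) were called higher. What these markers contributed to the subunit values was not tested.

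**Figure D3:**
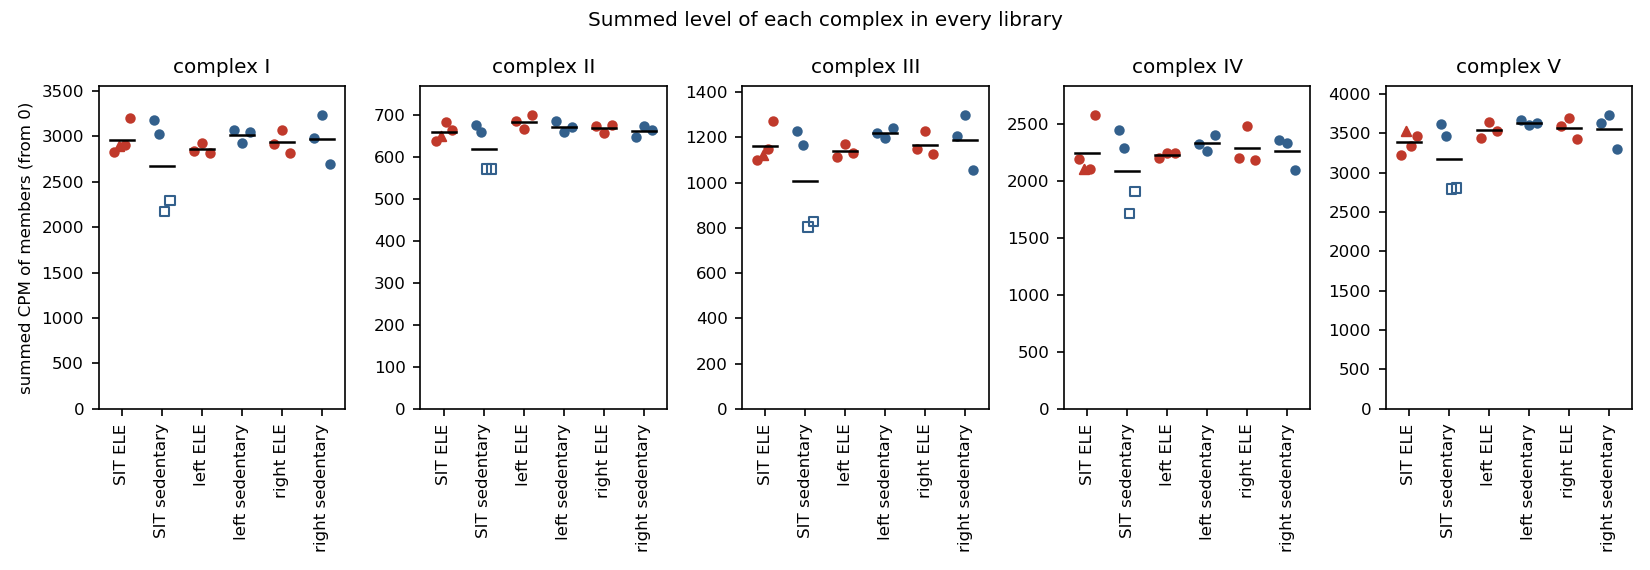
Summed CPM of the members of each complex by library, with ELE in red and sedentary in blue and bars at the group means. Open squares are the NT7.2 libraries, which sit lowest in every complex, and the triangle is NT6.304, the ELE library the study left out.

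In the left hippocampus, 11 members were called lower in ELE and 1 higher, out of 88. That is 13.6% of members called, where 3.94% of the 17750 tested genes were called; 1.95% of all genes were called lower and 1.99% higher. After adjustment over all genes no member passed, and the adjusted p was 0.960 for each of the 12. The median log2 fold change of the members was -0.070, with 70 of 88 lower, against 0.004 over all genes. Complex I had a median of -0.069 with 32 of 38 lower, 6 called lower and 1 called higher. Complex III had 9 of 9 lower, a median of -0.087 and 1 called. Complex IV had 12 of 16 lower, a median of -0.065 and none called, complex V had 13 of 17 lower, a median of -0.095 and 2 called, and complex II had a median of 0.002 with none called. Of the 4 Sdhaf genes, 2 were called lower.

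Ndufa4, counted here with complex I by its prefix although its protein is a subunit of complex IV, had the lowest p. Its gene, ENSMUSG00000029632.7, lies on GRCm38 at chr6:11900292-11907497. It had 138, 148 and 137 CPM in the ELE libraries and 168, 162 and 171 CPM in the sedentary libraries, with no overlap. The log2 fold change was -0.24 (SE 0.069, 95% interval -0.40 to -0.086, n = 3 and 3, adjusted p = 0.960). Its call held in each of the 12 other settings tried for the left.

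Ndufa1, a small membrane-arm subunit encoded on the X chromosome at chrX:37187588-37191163, had 33.5, 40.0 and 37.2 CPM in ELE and 43.0, 48.6 and 45.5 CPM in sedentary libraries. All ELE values were below the sedentary values, and the log2 fold change was -0.31 (SE 0.098). Other accessory subunits of complex I moved the same way. Ndufv3, attached to the NADH-binding module, had 58.5, 55.8 and 53.4 CPM in ELE and 65.8, 61.5 and 68.2 CPM in sedentary libraries (log2 fold change -0.22, SE 0.080). Ndufa7 had 47.1, 52.3 and 49.3 CPM against 60.8, 53.9 and 57.3 CPM (-0.21, SE 0.085). Ndufa11, a membrane-arm subunit, had 42.4, 54.9 and 46.1 CPM against 58.7, 56.4 and 55.8 CPM (-0.26, SE 0.11). Each of these 3 also had every ELE library below every sedentary library.

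In complex V, Atp5l, subunit g of the membrane sector, whose gene lies at chr9:44912557-44920742, had 88.8, 88.4 and 86.5 CPM in ELE and 113, 96.3 and 106 CPM in sedentary libraries. The log2 fold change was -0.26 (SE 0.079). Atp5e, the epsilon subunit in the central stalk of F1, at chr2:174461072-174464105, had 55.6, 67.5 and 53.5 CPM against 73.0, 69.7 and 80.9 CPM (-0.34, SE 0.11). Neither overlapped between groups. In complex III, Uqcr10 had 98.1, 113 and 105 CPM against 122, 115 and 126 CPM (-0.20, SE 0.081). The groups of Uqcr10 were separated by less than the range within each.

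Of the complex II assembly factors, Sdhaf4 had 19.1, 15.1 and 14.5 CPM in ELE and 19.0, 22.5 and 20.1 CPM in sedentary libraries (log2 fold change -0.34, SE 0.14), and here the groups overlapped. Sdhaf1, which helps to insert iron-sulfur clusters into Sdhb, had 7.95, 5.34 and 5.16 CPM against 8.34, 8.85 and 8.28 CPM (-0.47, SE 0.19). The calls outside the 10 with the lowest p, named after their values were seen, were Ndufb11 (-0.18, SE 0.077) and Ndufb3, the 1 member called higher (+0.18, SE 0.079), by a p that just passed. Ndufb3 had 52.4, 56.9 and 55.2 CPM in ELE and 49.0, 46.2 and 49.6 CPM in sedentary libraries.

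Grouped by role, after the values were seen, 6 of the 7 complex I core subunits were lower in left ELE, with a median log2 fold change of -0.060 and none called, and both catalytic subunits of complex III, Cyc1 and Uqcrfs1, were lower without a call. In the F1 head and stalk of ATP synthase 3 of 5 were lower, with a median of -0.031, and Atp5e alone was called. Some long catalytic subunits had overlapping groups and others did not. Sdha had 334, 319 and 346 CPM in ELE and 329, 324 and 332 CPM in sedentary libraries (log2 fold change +0.02, SE 0.067). Atp5b had 924, 976 and 947 CPM against 954, 946 and 919 CPM (+0.01, SE 0.063). Ndufs1 had 84.2, 80.7 and 89.6 CPM against 80.3, 88.3 and 77.9 CPM (+0.04). In all 3, chosen after their values were seen, the groups overlapped. Ndufv1, the NADH-binding subunit, had 119, 125 and 127.4 CPM in ELE and 127.5, 136 and 132 CPM in sedentary libraries (-0.089, SE 0.069), with every ELE library below every sedentary library. Uqcrfs1, the Rieske iron-sulfur protein, and Atp5c1, the gamma subunit of F1, were also lower in every ELE library (-0.087, SE 0.069, and -0.12, SE 0.066). None of these was called. Cox8a, the most abundant member, had 572, 525 and 579 CPM against 600, 559 and 604 CPM, a log2 fold change of -0.076 (SE 0.072, adjusted p = 0.960).

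Counted without a test, 24 of the 88 members had left groups that did not overlap, or 27.3%, where 10.8% of all tested genes did. In 21 of them ELE was lower, and all genes lower in this way made up 5.43%. In Atp5f1, Ndufb3 and Sdhb ELE was higher, as in 5.38% of all genes. Marker genes of other cells moved with these values. The summed level of 10 oligodendrocyte markers was 3119 to 3390 CPM in the left ELE libraries and 3460 to 3982 CPM in the left sedentary libraries, with 7 of 10 markers lower and 0 called. Among the inhibitory neuron markers Npy was called higher. All 10 choroid plexus markers were lower, 0 of them called, with summed levels of 81.2 to 1559 CPM in ELE and 115 to 1866 CPM in sedentary libraries. Their part in the result was not tested.

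The number of left calls rested on single libraries. It was 3 without the ELE library TG9.2.2, 4 without the sedentary library TG7.3.4 and 4 without the sedentary library TG9.2.4. The most when 1 library was left out was 16, or 17.98% of members, without the ELE library TG9.1.4. DESeq2 called 8 of 89, or 8.99%, all lower, and 2.98% of all genes. The share of all genes called was 6.83% without TG9.2.2, 1.83% without TG7.3.4, 2.08% without TG9.2.4 and 5.55% without TG9.1.4. Atp5l and Ndufa1 were called in 11 of the 12 other settings, Atp5e in 10, Ndufv3 in 9, Ndufa11, Sdhaf1 and Sdhaf4 in 7 each, Uqcr10 in 6, Ndufa7 in 5, Ndufb11 in 4 and Ndufb3 in 3. Of the 11 members called lower, 5, or 45.5%, had at least 1 of the NRF1, GABP, YY1 or ERR motifs in the promoter window, against 57.5% of all members with a window. Atp5e, Atp5l and Ndufa11 of those shown above were among the 5.

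**Figure D4:**
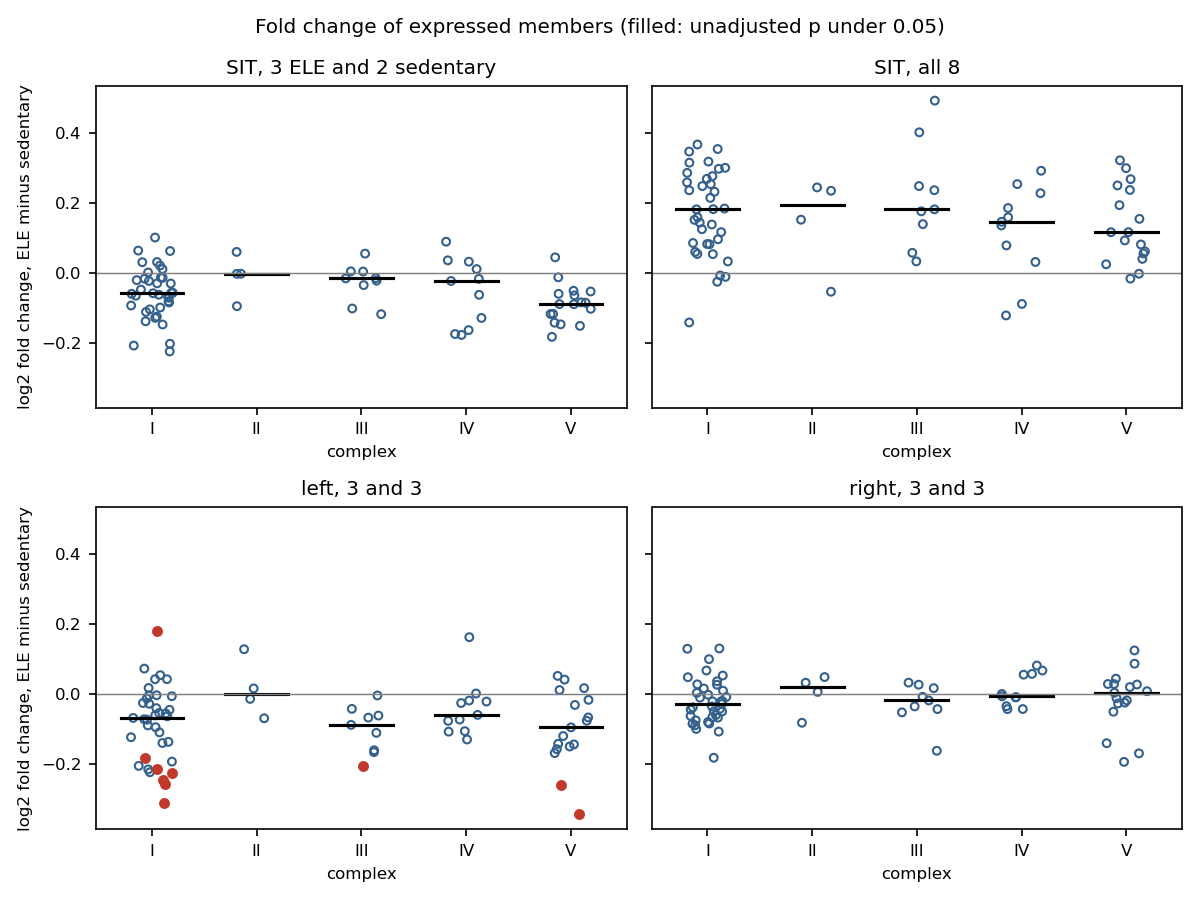
Log2 fold change, ELE against sedentary, of the members of each complex in the SIT (5 libraries), left and right comparisons, with filled points for members at an unadjusted p under 0.05. Filled points occur only on the left, where 9 subunits lie below 0 and Ndufb3 lies above it.

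Of the 12 members called on the left, 10 have short coding sequences. With members split at a coding length of 450 bases, a limit set after the values were seen, the 46 shorter members had a median log2 fold change of -0.10, with 39 lower and 10 called. The 36 longer members had a median of -0.05, with 27 lower and 2 called. Short genes at large shared part of this: the 821 tested genes of at most 450 coding bases had a median of -0.06 with 5.24% called, and the 12081 longer genes a median of +0.01 with 4.08% called. Across the 82 expressed members Spearman's rho between coding length and log2 fold change was 0.37 on the left, 0.17 on the right, -0.02 in the 5 SIT libraries and -0.46 in all 8. Across all genes with a coding length it was 0.13 on the left, -0.03 on the right, 0.11 in the 5 SIT libraries and -0.25 in all 8. With exonic length in place of coding length, rho across the expressed members on the left was 0.20. Genes share libraries and are not replicates, so these are descriptions. Length moved with the fold changes and its part in them was not tested.

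**Figure D5:**
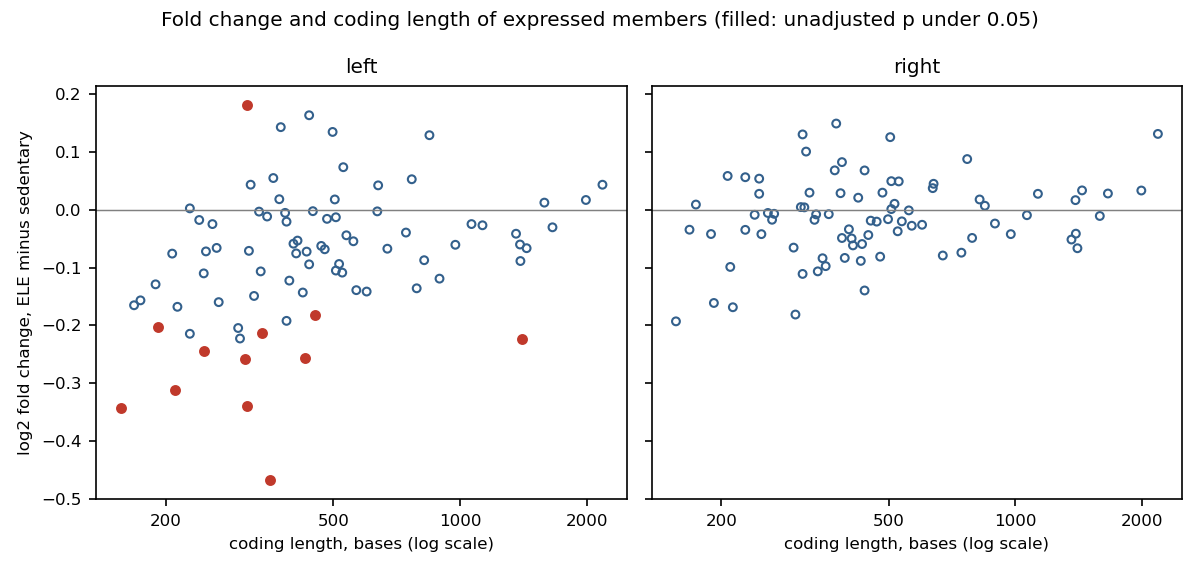
Log2 fold change, ELE against sedentary, of the 82 expressed members against coding length in bases, on a log axis, in the left and right libraries. Filled points are members at an unadjusted p under 0.05. On the left the shorter members lie lower (rho 0.37), and on the right rho is 0.17.

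In the right hippocampus no member passed the test in edgeR, where 2.78% of 17570 genes did, and DESeq2 called 0 of 89 members and 2.47% of all genes. The median log2 fold change was -0.017, 53 of 88 members were lower, and medians by complex were -0.031 in I, 0.020 in II, -0.018 in III, -0.007 in IV and 0.004 in V. The lowest p (adjusted p = 0.9998) was that of Cox6b2, the near-absent testis form, and it was the 1 member of 88 whose groups did not overlap, where 7.69% of all tested genes did not and 3.89% were lower in ELE in this way. The right sedentary libraries lay at both ends of the range. In TG9.1.1, 9 of the 82 expressed members were below their own median over the 20 libraries, and in TG9.2.3, 76 were. Their complex I sums were 3231 and 2694 CPM, with 2979 CPM in the sedentary library TG7.3.3, and the ELE libraries had 2910, 3073 and 2819 CPM, all between the extremes. Leaving out TG9.2.3 gave 3 members called lower, where 2.44% of all genes were called, and leaving out TG9.1.1 gave 1 call, where 5.36% were, and a median of +0.036. Markers moved here too. Of 9 choroid plexus markers tested 6 were called lower, Aqp1 (-5.76), Ttr (-5.27), Clic6 (-3.44), Folr1 (-2.95), Enpp2 (-1.92) and Kl (-0.80), with summed levels of 65.8 to 112 CPM in the ELE libraries and 100.2, 164 and 1739 CPM in the sedentary libraries TG7.3.3, TG9.1.1 and TG9.2.3. The endothelial markers Tek (-2.36) and Cldn5 (-2.45) and the microglial Cx3cr1 (-1.65) were called lower, and the inhibitory neuron marker Slc32a1 (+1.15) higher. The microglia markers as a list did not move with Cx3cr1: 3 of the 8 tested were lower, and the median log2 fold change was 0.041. The part of all these markers in the subunit values was not tested.

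Whether ELE acted differently in the 2 hemispheres was tested as an interaction. It called 1 of 89 members, where it called 2.6% of 18810 genes, and 1.08% with the higher value on the right. Ndufa4 had 153, 168 and 149 CPM in right ELE and 156, 167 and 129 CPM in right sedentary libraries, where the groups overlapped. Its log2 fold change on the right exceeded that on the left by 0.30 (95% interval 0.016 to 0.58, adjusted p = 0.99999). This call was lost when TG9.1.3, TG7.3.2, TG9.2.2, TG9.2.3, TG7.3.4 or TG9.2.4 was left out, with values of 0.20 to 0.30. The median difference over the members was 0.050, with 67 of 89 higher on the right. The other members called on the left are therefore not shown to differ between hemispheres. With left and right in 1 fit and hemisphere as a term, an alternative added after the data were seen, 7 of 89 members were called lower, or 7.87%, against 5.31% of all genes and 2.83% called lower. They were Cox6b2 (-1.01, SE 0.30), Atp5e (-0.27, SE 0.095), Uqcr10 (-0.18, SE 0.070), Ndufa7 (-0.16, SE 0.069), Ndufa1 (-0.21, SE 0.092), Sdhaf4 (-0.23, SE 0.10) and Ndufa3 (-0.20, SE 0.093), with no adjusted p below 0.919. The share of members called above that of all genes rested on single libraries. It fell below that of all genes without TG9.2.2 (3 members, 3.37% against 5.35%), TG7.3.2 (5 members, 5.62% against 6.98%), TG9.2.1 (4 members, 4.49% against 4.58%) or TG9.1.1 (5 members, 5.62% against 7.58%), and 16 members were called without TG9.2.3. This fit shares its libraries with the left and right comparisons. In it the excitatory neuron markers Prox1 (+0.22) and Neurod2 (+0.28) were called higher, and the choroid plexus markers Folr1 (-1.85) and Aqp1 (-2.83) and the endothelial marker Tek (-2.24) lower. All 10 choroid plexus and all 10 endothelial markers had values below 0, and the part of these markers in the subunit values was not tested.

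Cox6b2 also had the 1 call for a difference between isolations. Its level was 0.660, 0.790 and 0.472 CPM in left ELE and 1.04, 1.81 and 0.710 CPM in left sedentary libraries, and 0.359, 0.260 and 0.372 CPM in right ELE and 0.612, 0.847 and 0.736 CPM in right sedentary libraries. In SIT it was 0.982, 1.16 and 0.654 CPM in the 3 ELE libraries and 0.673 and 0.869 CPM in the 2 sedentary libraries. The SIT fold change exceeded that of the separate libraries by 1.29 on the log2 scale (95% interval 0.049 to 2.54, adjusted p = 0.982), a test that called 4.89% of 20345 genes and 2.35% in this direction. This call was lost with no filter on low counts and without NT6.303, TG7.4.1, NT6.305 or NT6.306. These are levels of 13 to 98 counts per library. Over all 89 members the median difference between isolations was 0.003.

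Genes that act with the subunits were counted in the SIT, left and right comparisons, in which 5.48%, 3.94% and 2.78% of all genes were called. Of the 13 mitochondrially encoded subunits, mt-Nd5, a proton-pumping subunit of complex I, was called lower on the right (log2 fold change -0.31, SE 0.12), which is 7.69% of the list, and the others were not called. Of 42 assembly factors tested, Atpaf1, a chaperone of the F1 head, was called higher on the left (+0.20, SE 0.085), or 2.38%. Of 15 regulators of mitochondrial biogenesis, Gabpb1, the beta subunit of GABP, was called higher on the right (+0.33, SE 0.15), or 6.67%. Of 17 tricarboxylic acid cycle enzymes, the malate dehydrogenase Mdh2 was called lower in SIT (-0.20, SE 0.086), or 5.88%. Each of these shares rests on 1 gene. None of 13 mobile electron carriers and related genes was called. No adjusted p of these 4 genes was below 0.906. On the left, where members had a median of -0.070, the medians of these lists were 0.085 for the mitochondrially encoded subunits, -0.014 for assembly factors, 0.027 for regulators, -0.013 for cycle enzymes and -0.033 for carriers.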

How the data were processed

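Ribosome-bound mRNA was sequenced from Emx1-NuTRAP hippocampi. The authors aligned paired reads to GRCm38.p6 with STAR 2.7.3a, removed duplicates with Picard 1.87, counted read pairs over exons by strand with GenomicAlignments, and deposited the counts per gene as whole numbers with no normalization. Columns carry mouse numbers and were assigned to groups through the study's sample sheet. Another table, of wild-type hippocampus, has 24 columns that could not be matched to samples and was not used. The SIT libraries compared were those whose subset matched the study's lists.

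Counts were tested across all genes after filterByExpr with TMM scaling and edgeR 4.0.16 quasi-likelihood (R 4.3.3), and p-values were adjusted by Benjamini-Hochberg over all genes tested. A member was called at an unadjusted p under 0.05. Named members were, per comparison, up to 10 called members with the lowest p, the most abundant of each complex and the paralogue sets; others were named after their values were seen. The fits were tested on simulated counts. Members and lists were chosen with earlier results of these data known. Each library is 1 mouse. DESeq2 1.42.0, size-factor scaling, no filter, a shared spread over groups, the replicate block and leaving out libraries were alternatives. TPM used GENCODE exonic lengths, the union of all annotated exons of a gene. Some marker gene results are not reported here.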

Additional observations from a re-analysis of the deposited data

Results flagged for a closer look

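In a group of 4 to 10 libraries, a value was marked when its gap to the nearest other value, as a share of the group's range, passed Dixon's limit. Over 50 sets of values 2 were marked, and chance marks about 1 in 20. Both were in the SIT ELE library TG7.4.2: Ndufa11 at 56.7 CPM, with the others between 49.5 and 50.1 CPM, and Ndufa7 at 72.9 CPM, with the others between 48.4 and 51.8 CPM. The same library had 16 of 82 expressed members below their own 20-library median.

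Ndufa4 was marked because its response to ELE differed between hemispheres (log2 difference 0.297, right minus left, edgeR, 95% interval 0.016 to 0.58, adjusted p = 0.99999). The call was lost in 6 of 17 other settings, each leaving out 1 library, with values from 0.198 to 0.376 over all 17. Cox6b2 was marked because its response differed between isolations (log2 difference 1.29, SIT minus separate, edgeR, 95% interval 0.049 to 2.54, adjusted p = 0.982), at levels near 1 CPM. Its call was lost in 5 of 10 other settings: with no filter on low counts and without NT6.303, TG7.4.1, NT6.305 or NT6.306. Over the 10 settings its value lay between 1.11 and 1.498.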

How the results depend on the processing

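The left median stayed below 0 when any 1 library was left out (-0.0936 to -0.0616). Its calls ran from 3 without TG9.2.2 (3.41% of members, 6.83% of all genes) to 16 without TG9.1.4 (17.98% and 5.55%). In SIT the calls ran from 0 to 13 and the median from -0.107 to -0.0103 without 1 of the 5 libraries. All 8 SIT libraries gave 1 call and a median of 0.154, which became 0.0690 without NT7.2.3 and 0.100 without NT7.2.4 and lay between 0.132 and 0.242 without any other library (0.132, 0.147, 0.174, 0.182, 0.224 and 0.242), with 10 calls (11.2% of members, 12.1% of all genes) without NT6.305, 4 (4.49% and 11.8%) without NT6.306 and 0 or 1 otherwise. The NT6 mice alone gave 1 call, where 7.295% of all genes were called. The right gave 0 to 3 calls without 1 library and 1 call with the spread shared over the 12 separate libraries, where 3.35% of all genes were called. The interaction gave 0 to 2 calls without 1 library, where 1.96 to 4.18% of all genes were called. The fit of both hemispheres gave 3 calls without TG9.2.2 (3.37% of members, 5.35% of all genes) to 16 without TG9.2.3 (17.98% and 4.998%), with 14 without TG9.1.3 and 4 each without TG9.2.1, TG7.3.4 and TG9.2.4, and 3.75 to 7.58% of all genes called. The isolation difference gave 0 calls without the filter (5.45% of all genes), 6 calls (6.74% of members, 8.56% of all genes) and a median of 0.182 with all 8 SIT libraries, and 1 to 5 calls without 1 library, where 3.64 to 6.51% of all genes were called. The cause of these changes was not tested. Over the called members and their settings, 190 values kept direction and call, 93 kept the direction alone, and 0 reversed.

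The first part of the mouse number was tried as a replicate block. Deviations of same-numbered mice correlated between 0.016 and 0.181 on the left and between -0.090 and 0.210 on the right, so the numbers do not show a pairing. With the replicate block the left had 8 calls (median -0.070), the right 0 (-0.011), the interaction 1 (0.058) and both hemispheres 10 (-0.053), where 4.07%, 2.88%, 2.79% and 6.73% of all genes were called. Precision is limited by the number of mice: the median SE of a member's log2 fold change was 0.079 on the left, 0.112 on the right and 0.116 in SIT.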
